A study of Arabidopsis thaliana with 20 samples.

Results

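NTRC (AT2G41680) and AT3G52960, the gene for peroxiredoxin IIE, are nuclear genes of the chloroplast thiol redox system and were followed in wild-type Arabidopsis thaliana of ecotype Columbia 0. The probes used were all those of the array table whose annotation names exactly 1 gene, where that gene is NTRC or AT3G52960. This gave 2 of 3439 probes and 2 of 691 genes with a probe of their own, probe 1759 for NTRC and probe 1966 for AT3G52960. Neither gene was named on any of the 870 probes tied to several genes. The plants of 1 group were kept at a normal CO2 level and their titles are marked 0d. Those of the other group spent their last 96 h at 0.003% CO2 by volume and are marked 4d, so low CO2 and time in the experiment moved together and cannot be told apart. Each group held 10 columns of total RNA measured on an array, numbered 1 to 10. The sources used here do not give plant age, tissue, light or the number of plants behind a column, nor whether columns came from separate plants. Unless stated otherwise, the p-values thus describe the spread between deposited columns after neighbouring ones were averaged, as described below. Part or all of that spread may be technical.

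Light drives electrons to ferredoxin and NADPH in the chloroplast, and part of them is passed on to disulfide bonds of enzymes. The ferredoxin-thioredoxin reductase hands them to thioredoxins, which switch on enzymes of carbon fixation in the light. NTRC is a fusion of an NADPH-dependent thioredoxin reductase and a thioredoxin in a single protein, so it draws on NADPH and can work in darkness and at low light as well. It reduces plastid peroxiredoxins, which remove hydrogen peroxide, and it also acts on enzymes of starch and chlorophyll synthesis. Peroxiredoxin IIE belongs to the type II peroxiredoxins, takes its electrons from glutathione and glutaredoxin, and breaks down hydrogen peroxide, organic hydroperoxides and peroxynitrite in the plastid stroma.

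The values were intensities on a linear scale, with column totals between 3495 and 3797 and 4.77% to 6.48% of a column at exactly 0. Column medians ran from -1.59 to -0.77 on the log2 scale, so levels are given as log2 intensity relative to the median of the column. The deviation from the group mean, across probes, was correlated between columns of the same group. In 20 of 20 columns it correlated best with that of the neighbouring number (1 with 2, 3 with 4 and so on). Each such pair was averaged and entered as 1 value, giving 5 averaged pairs per group. Of the green shoot markers, 2 of 4 had a probe of their own, and none of the 3 root or 3 seed markers did. The plant organ, which the sources used here do not give, could thus not be read from these markers. Intensity also depends on the probe, and levels of different genes are not compared as amounts of RNA. In RNA from many cells, fewer cells of a type and less RNA per cell cannot be told apart.

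NTRC gave a signal above 0 in all 20 columns, near the middle of the array, with a mean level at or above that of 49.2% of the probes tested. In normal CO2 its deposited intensity had a lowest value of 0.269, a median of 0.430 and a highest value of 0.591. In low CO2 the lowest was 0.306, the median 0.399 and the highest 0.607. The groups overlapped: on the centred log2 scale the columns spanned 1.46 in normal CO2, where column 1 lay far down, and 0.89 in low CO2, and 9 of 10 low CO2 columns lay inside the normal CO2 range. Of the low CO2 columns, 8 of 10 lay below the normal CO2 median. The largest intensity exceeded the smallest 2.19-fold in normal CO2 and 1.98-fold in low CO2.

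The averaged pairs of NTRC in normal CO2 had log2 levels of -0.67 (columns 1 and 2), -0.30 (3 and 4), 0.29 (5 and 6), 0.15 (7 and 8) and 0.34 (9 and 10). In low CO2 they were -0.23, 0.34, -0.14, -0.12 and -0.32 in the same order of numbers. The lowest of all 10 was a normal CO2 pair, and the highest values of the 2 groups were nearly equal, so the groups overlapped almost completely. That lowest place depended on the centring. Without it low CO2 columns 5 and 6, at -1.49, and 9 and 10, at -1.48, lay below normal CO2 columns 1 and 2, at -1.44. Compared number by number, low CO2 was below normal CO2 in 3 of 5 numbers and above it in the others, by up to 0.64. Equal numbers were not shown to pair the samples of the groups, for NTRC or for the genes below.

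AT3G52960 also gave a signal above 0 in all 20 columns and was dimmer, with a mean level at or above that of 39.7% of the probes tested. Its deposited intensity in normal CO2 had a lowest value of 0.165, a median of 0.291 and a highest value of 0.552. In low CO2 the lowest was 0.195, the median 0.261 and the highest 0.708. The lowest and the highest intensity of this probe thus differed 3.35-fold in normal CO2 and 3.63-fold in low CO2. On the centred log2 scale 6 of 10 low CO2 columns lay inside the range of the normal CO2 columns and 8 of 10 below their median, while all 10 normal CO2 columns lay inside the wider low CO2 range.

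The averaged pairs of AT3G52960 in normal CO2 had log2 levels of -0.13 (columns 1 and 2), -0.81 (3 and 4), 0.17 (5 and 6), -0.56 (7 and 8) and -0.72 (9 and 10). In low CO2 they were 0.47, -0.98, -0.74, -0.63 and -0.93 in the same order. Columns 1 and 2 of low CO2 were the highest of all 10 pairs, while the other 4 low CO2 pairs lay between -0.98 and -0.63. For numbers 3 and 4, 7 and 8, and 9 and 10 the low CO2 pair lay 0.17, 0.07 and 0.21 below the normal CO2 pair. The remaining numbers went opposite ways, with low CO2 0.60 higher for columns 1 and 2 and 0.91 lower for columns 5 and 6.

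**Figure D1:**
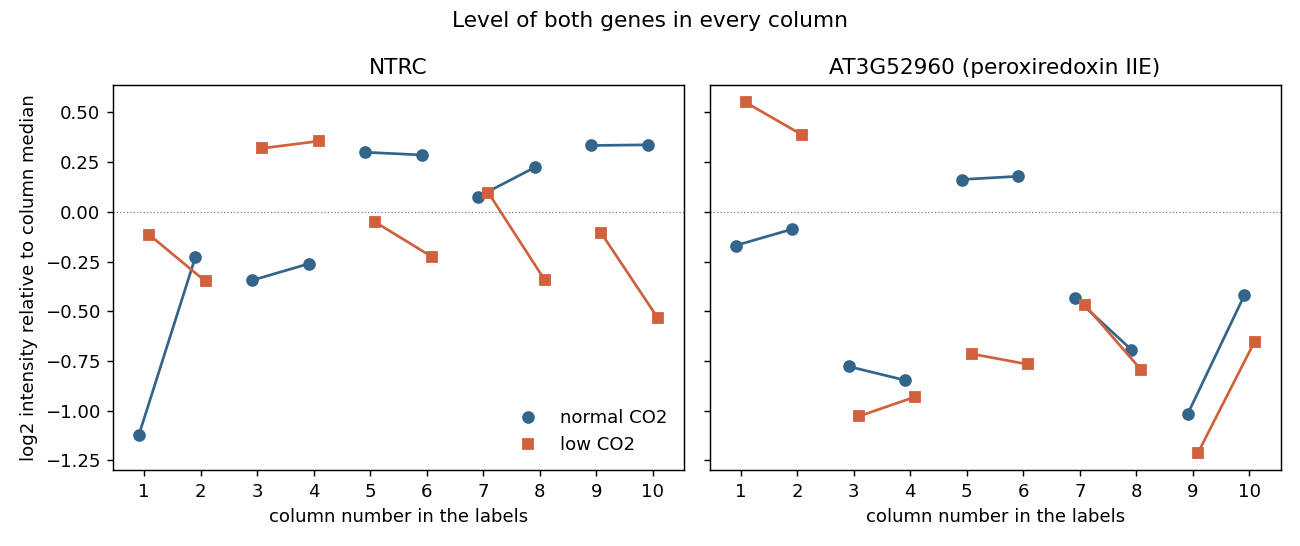
Log2 intensity relative to the column median (vertical axis) of NTRC and AT3G52960 in each of the 10 normal CO2 columns (circles) and 10 low CO2 columns (squares), by column number; lines join the neighbouring columns that were averaged. The groups overlap for both genes, normal CO2 column 1 lies lowest for NTRC at -1.12, and low CO2 columns 1 and 2 lie highest for AT3G52960 at 0.55 and 0.39.

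Between the groups, neither NTRC nor AT3G52960 passed the test. The mean log2 level of NTRC over normal CO2 pairs was -0.04 ± 0.44 (SD, n = 5), and over low CO2 pairs it was -0.10 ± 0.25 (SD, n = 5). The limma fit over all probes gave a log2 change, low minus normal CO2, of -0.06 ± 0.21 (SE) with an adjusted p of 0.912. The 95% interval ran from -0.52 to 0.40, so changes between 0.700-fold and 1.32-fold lay within it. The size of this change was at or above that of 10.6% of the probes tested, among the smaller ones on the array.

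For AT3G52960 the mean log2 level over normal CO2 pairs was -0.41 ± 0.42 (SD, n = 5), and over low CO2 pairs it was -0.56 ± 0.59 (SD, n = 5). Its log2 change was -0.15 ± 0.28 (SE), with an adjusted p in limma of 0.811 and a 95% interval from -0.75 to 0.45, or 0.593-fold to 1.36-fold. The difference was smaller than the spread between the averaged pairs of either group. Over the whole table, 69 of 3277 tested probes, 2.11%, had an adjusted p below 0.05 in limma, so 0 calls among 2 probes is close to the background.

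For both genes the estimate moved with single pairs. For AT3G52960, without low CO2 columns 1 and 2, the log2 change was -0.41 ± 0.23 (SE, limma adjusted p = 0.341), and without normal CO2 columns 5 and 6 it was -0.0084 (adjusted p in limma 0.991). For NTRC the change was -0.21 without normal CO2 columns 1 and 2 (adjusted p in limma 0.575), and it was 0.038 without normal CO2 columns 9 and 10 (adjusted p in limma 0.954). Its sign therefore depended on the pairs included.

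Neighbouring columns, which the labels do not call repeats, differed in how closely they agreed. For NTRC the gap between neighbouring columns had a median of 0.16 on the log2 scale and reached 0.90 between normal CO2 columns 1 and 2, where column 1 stood at -1.12 and column 2 at -0.23. In the other 9 normal CO2 columns NTRC lay between -0.34 and 0.34. With normal CO2 column 1 left out, chosen after its value was seen, the log2 change was -0.15 ± 0.19 (SE, adjusted p in limma 0.724). For AT3G52960 the median gap was 0.13 and the largest, 0.60, lay between normal CO2 columns 9 and 10. Low CO2 columns 9 and 10 differed the same way, at -1.21 and -0.65, against -1.02 and -0.42 in normal CO2.

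The spread within pairs was set beside that between averaged pairs. The SD within pairs is that of a single column. The SD between pairs is that of averaged columns and still holds part of the within-pair spread, so these are not separate components. Within pairs the SD was 0.25 for NTRC and 0.21 for AT3G52960, against a median of 0.18 over the tested probes. Between the averaged pairs of a group the SD was 0.36 for NTRC, 1.40 times that within pairs, and 0.51 for AT3G52960, 2.43 times. The median of this ratio over tested probes was 1.84, and the difference between the genes in this ratio was not tested. Without normal CO2 columns 1 and 2, chosen after the values were seen, the within-pair SD of NTRC was 0.17, below the median of 0.18 over the tested probes, and the ratio was 1.64 for NTRC and 2.41 for AT3G52960, against a median of 1.73. NTRC had a between-pair SD at or above that of 47.9% of the tested probes, and AT3G52960 at or above that of 75.2%.

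Centring of the columns moved the spread of the genes in opposite ways in normal CO2. There the median of the averaged pairs had an SD of 0.30 on the log2 scale, with the highest, -0.77, for columns 1 and 2 and the lowest, -1.59, for columns 9 and 10. The SD of NTRC over the 5 normal CO2 pairs was 0.44 with centring and 0.28 without it. That of AT3G52960 was 0.42 with centring and 0.64 without. In low CO2, where the column medians had an SD of 0.12, the SD was 0.25 with and 0.31 without centring for NTRC, and 0.59 and 0.64 for AT3G52960. The log2 changes themselves stayed close, at -0.04 for NTRC and -0.14 for AT3G52960 without centring.

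**Figure D2:**
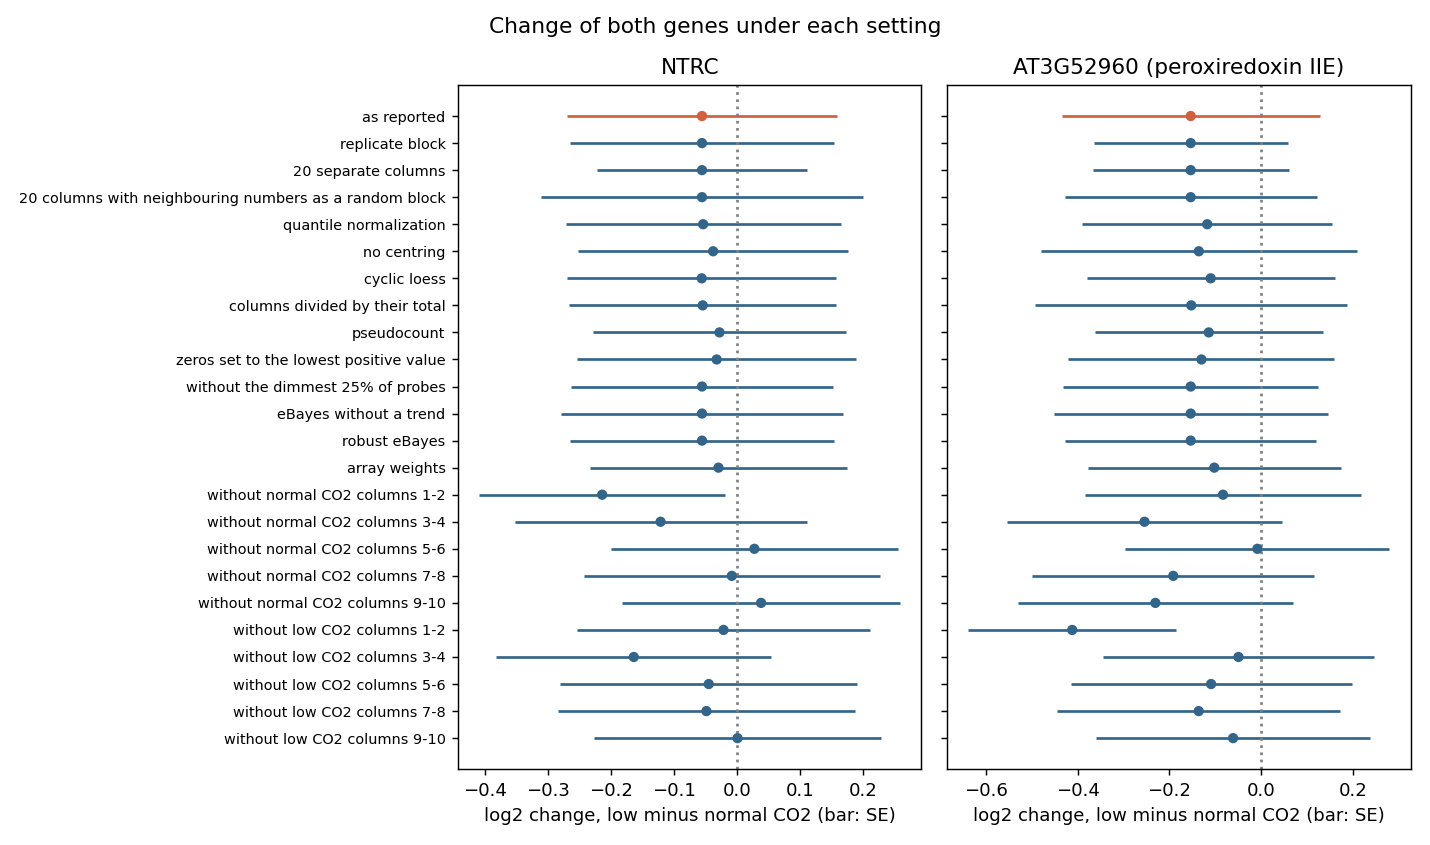
Log2 change, low minus normal CO2 (horizontal axis, bars: SE), of NTRC and AT3G52960 as reported (orange, top) and in each other setting of the fit (blue). The changes stay within -0.21 and 0.04 for NTRC and within -0.41 and -0.01 for AT3G52960 in the settings drawn.

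The difference between both genes within the same column is free of any factor that multiplies the whole column, but not of other differences between columns. NTRC minus AT3G52960 was -0.55, 0.51, 0.12, 0.71 and 1.05 in the 5 normal CO2 pairs, in order of number. In low CO2 it was -0.70, 1.32, 0.60, 0.51 and 0.61. Columns 1 and 2 gave the lowest value in both groups, and the groups overlapped. The mean was 0.37 ± 0.61 (SD, n = 5) over normal CO2 pairs, against 0.47 ± 0.73 (SD, n = 5) over low CO2 pairs. The low minus normal difference was 0.10, with a two-sided exact permutation p of 0.817 over 252 splits, of which the smallest possible p is 0.00794. The 95% interval from the same exact test ran from -0.93 to 1.15. An unequal change of the genes was thus not detected, with an interval of the ratio from 0.526-fold to 2.22-fold.

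Within groups the deviations of the genes from their group means were not related in the test. Over the 10 averaged pairs Pearson's r was -0.17 (exact permutation within groups, two-sided p = 0.612) and Spearman's rho was -0.18 (exact permutation p = 0.640). This was the only relation tested across samples. Without the 2 pairs farthest from the median of NTRC, normal CO2 columns 1 and 2 and low CO2 columns 3 and 4, r was 0.28, and without centring it was 0.12. Over the 10 separate columns of a group, which are not independent, it was -0.02 for normal CO2 and -0.32 for low CO2. In low CO2 columns 1 and 2 AT3G52960 deviated by 1.03 upwards and NTRC by 0.14 downwards. In low CO2 columns 3 and 4 NTRC deviated by 0.43 upwards, while AT3G52960 stood at -0.42.

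**Figure D3:**
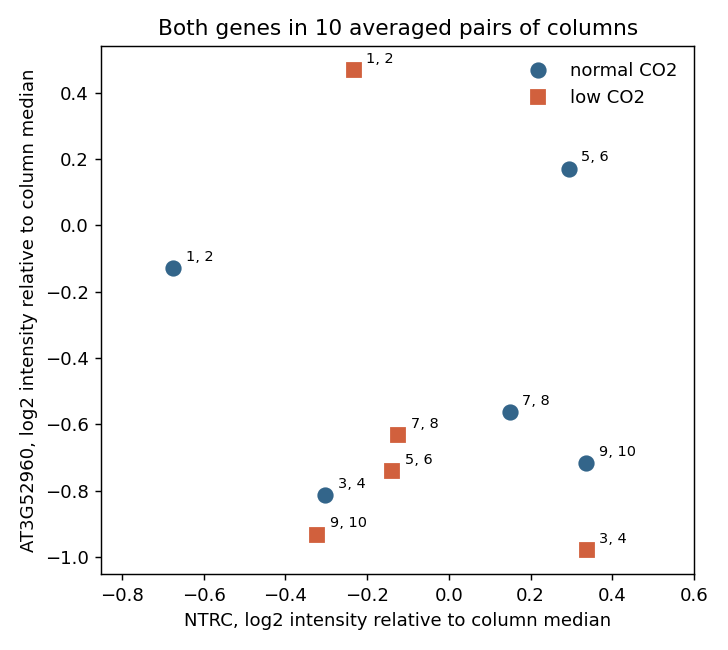
Log2 level of NTRC (horizontal axis) against that of AT3G52960 (vertical axis) in 5 averaged pairs of normal CO2 columns (circles) and 5 of low CO2 columns (squares), each labelled with its column numbers. The points show no common direction, and low CO2 columns 1 and 2 stand alone at 0.47 for AT3G52960.

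Other genes of the thiol redox system were read from 6 lists with 81 genes, NTRC and AT3G52960 included. Only 8 of these genes had a probe of their own, and 11 more were named only on probes tied to several genes and were not read. None of the 19 plastid thioredoxins could be read singly. None of the 8 genes passed the test, against 2.11% of all tested probes and 7 of the 651 tested probes tied to 1 gene. An unadjusted p below 0.05 in limma was found for 1 of the 8, for 569 of 3277 probes and for 94 of the 651. The log2 change lay below 0 for 7 of the 8, for 1597 of 3277 probes and for 286 of the 651. The median was -0.22 for the 8, 0.01 over all probes and 0.06 over the 651.

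Beside NTRC, the catalytic subunit of the ferredoxin-thioredoxin reductase (AT2G04700) was the other reductase measured. It reduces thioredoxins with electrons from ferredoxin. Its log2 levels were -0.04, 0.19, -0.03, 0.04 and 0.58 in the normal CO2 pairs, in order of number. In low CO2 they were -0.04, -0.17, 0.05, 0.13 and -0.17, and 3 of these were lower than all normal CO2 values. Normal CO2 columns 9 and 10 were the highest of all. The log2 change was -0.19 ± 0.16 (SE, adjusted p in limma 0.573), and it was -0.08 without normal CO2 columns 9 and 10 (adjusted p in limma 0.828). With a between-pair SD of 0.21, at or above that of 10.4% of the tested probes, AT2G04700 varied by less than NTRC, a difference that was not tested.

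Beside AT3G52960, the peroxidase and repair list was measured by SRX (AT1G31170), sulfiredoxin, which reduces overoxidised plastid peroxiredoxins of the typical kind. SRX was dim, with a mean level at or above that of 4.9% of the tested probes. Its log2 levels were -2.60, -3.37, -2.67, -2.94 and -2.95 in normal CO2 and -4.57, -6.33, -3.03, -3.05 and -3.32 in low CO2. The 2 lowest low CO2 pairs each held a value at or near 0: column 2 was listed at 0, which left column 1 alone at an intensity of 0.0204, and column 3 held 0.000604, 95.5-fold below column 4. The log2 change of SRX was -1.16 ± 0.60 (SE, adjusted p in limma 0.349). Without low CO2 columns 3 and 4 it was -0.59 (adjusted p in limma 0.540), and it was -1.92 with the lowest positive value of each column in place of zeros and -0.43 with a pseudocount of 0.0403 added to every intensity.

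Enzymes whose activity is known to depend on thiol reduction were measured by 4 of 20 genes. SBPASE, sedoheptulose-bisphosphatase of the Calvin cycle, differed by a log2 value of -0.43 ± 0.19 (SE), limma adjusted p = 0.267, and in 4 of 5 low CO2 pairs it was lower than in any normal CO2 pair. The estimate for PRK, phosphoribulokinase, was -0.25 ± 0.20 (SE), limma adjusted p = 0.555, and it was -0.10 when low CO2 columns 3 and 4 were left out and -0.38 when low CO2 columns 7 and 8 were. CHLM, the magnesium protoporphyrin methyltransferase of chlorophyll synthesis and a known partner of NTRC, stood at -0.50 ± 0.25 (SE), limma adjusted p = 0.349. For CHLM the low CO2 pair was below the normal CO2 pair of the same number in 5 of 5 numbers, by 0.20 to 0.82. Equal numbers were not shown to pair the samples, and 3 of the 5 low CO2 pairs lay inside the normal CO2 range.

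AT5G58330, the plastid NADP-dependent malate dehydrogenase, exports reducing power from the stroma as malate and is activated by thioredoxin. It was the 1 gene of the 8 with a log2 change above 0. Its log2 levels were 3.40, 4.21, 3.93, 4.17 and 4.36 in normal CO2 and 3.58, 4.85, 5.12, 3.94 and 5.32 in low CO2. Columns 3 and 4, 5 and 6, and 9 and 10 of low CO2 lay above every normal CO2 pair, while the other two lay within the normal range. The log2 change was 0.55 ± 0.34 (SE, limma adjusted p = 0.432). Leaving out low CO2 columns 9 and 10 gave 0.36 (limma adjusted p = 0.699), and leaving out low CO2 columns 1 and 2 gave 0.79 (0.196).

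**Figure D4:**
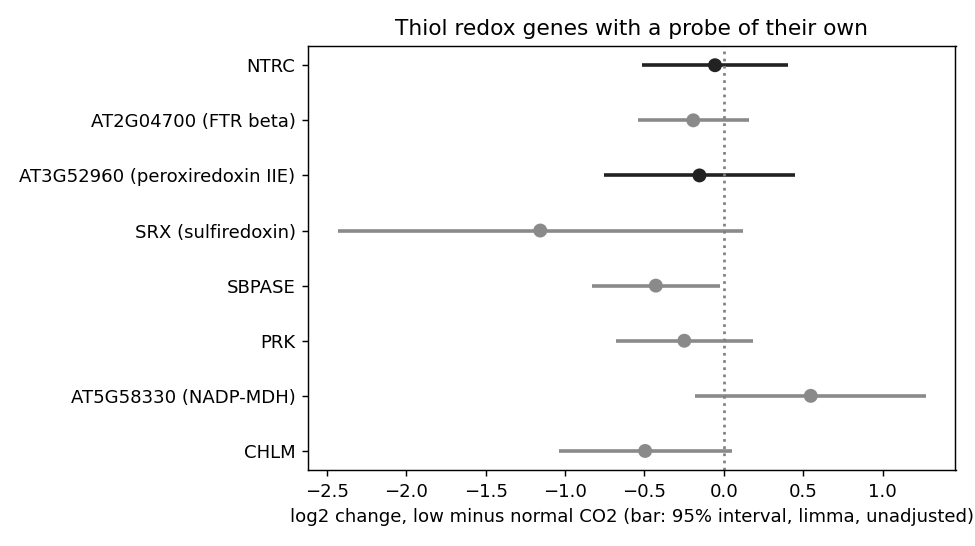
Log2 change, low minus normal CO2 (horizontal axis; points: limma estimate, bars: unadjusted 95% interval, 5 averaged pairs per group), of the 8 thiol redox genes with a probe of their own, NTRC and AT3G52960 in black. All intervals but that of SBPASE, -0.83 to -0.03, cross 0, and none of the genes passed after adjustment over 3277 probes.

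**Figure D5:**
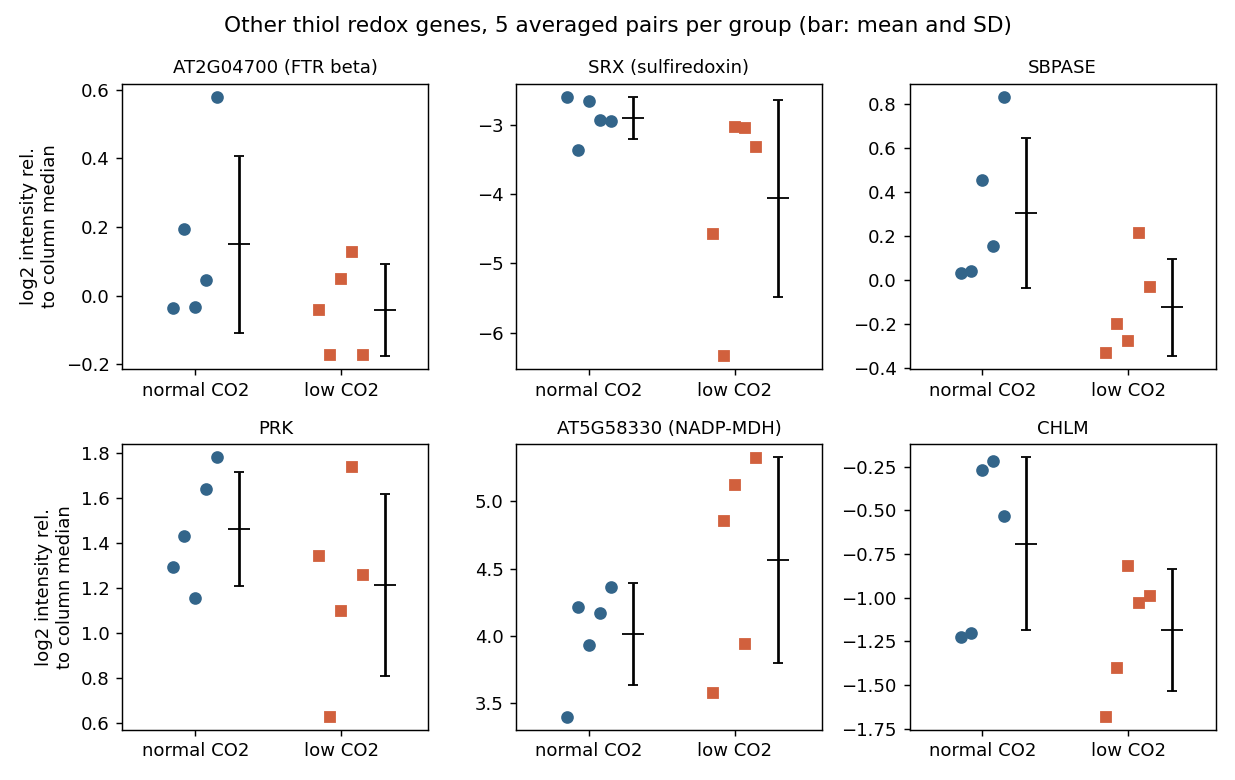
Log2 level relative to the column median (vertical axis, own scale in each panel) of the other 6 redox genes in 5 averaged pairs of normal CO2 columns (circles) and low CO2 columns (squares), with the mean and SD beside them. The 2 low SRX pairs at -4.57 and -6.33 and the 3 high AT5G58330 pairs at 4.85, 5.12 and 5.32 stand off their groups' other pairs.

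The patterns most like those of the 2 genes were sought among 584 single-gene probes with a value above 0 in all 20 columns, by Pearson's r of the centred log2 level over the 10 averaged pairs. For NTRC they were AT1G51550 (r = 0.87), GLX2-1 (AT2G43430, a glyoxalase II, r = 0.85) and AT2G30100 (r = 0.81). For AT3G52960 they were AT2G32040, a plastid folate transporter (r = 0.87), SAP (AT5G35770, the floral regulator STERILE APETALA, r = 0.82) and AT5G50350 (r = 0.81). These are the highest of 583 values for each gene, and all points share the column scaling. Over the 20 separate columns r was 0.59 to 0.62 for the 3 genes named for NTRC and 0.71 to 0.78 for those named for AT3G52960. None of the 6 passed the test between the groups, with adjusted p in limma from 0.456 to 0.787. NTRC and AT3G52960 were not alike by the same measure (r = -0.15), and 38.6% of single-gene probes had a lower r with NTRC.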

How the data were processed

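Per the labels, total RNA was measured in 10 normal CO2 and 10 low CO2 samples. The authors deposited linear intensity values; the sources used here do not state the scaling, background correction or array type. Probes were named from the platform annotation, in which 692 name 1 gene; 690 of these matched the TAIR10.1 gene table. No coordinates or sequences are printed.

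Values of 0 were treated as missing, log2 values were centred on the column median, and neighbouring numbers were averaged. Deviations of neighbours correlated at 0.30 to 0.82 (normal CO2) and at 0.15 to 0.48 (low CO2). With other columns of the same group they correlated at most at 0.13 (normal CO2) and -0.06 (low CO2). Single columns of different groups were not compared. Probes with values in at least 3 averaged pairs per group (3277) were fitted with limma 3.58.1 (lmFit, eBayes with a variance trend, R 4.3.3) and adjusted by Benjamini-Hochberg, threshold 0.05. The code was tested on simulated data. The ratio and the correlation of both genes were tested by exact permutation over averaged pairs. With 5 averaged pairs per group their number limits the precision; the median SE over all probes was 0.23.

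NTRC, AT3G52960, the gene lists and the averaging were chosen with earlier results of these data known. Named genes were both genes, list genes with a probe of their own, and for each gene the 3 single-gene probes with the highest r. The settings tried were a block for the replicate number, 20 separate columns, neighbours as a random block, quantile normalization, cyclic loess, no centring, division by the column total, a pseudocount of 0.0403 (10th percentile of all values), a floor for zeros, removal of the dimmest 25%, other variance models, array weights and leaving out each averaged pair.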

Additional observations from a re-analysis of the deposited data

Results flagged for a closer look

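In 2 of 34 groups of values examined, 1 value lay far from the others by Dixon's test. About 1.7 would be expected by chance if values and groups were independent. Neighbouring columns deviated together and some groups share values, so this number is only a rough guide. In low CO2 columns 1 and 2 AT3G52960 stood at a log2 level of 0.47, where the nearest other pair stood at -0.63 and the other 4 averaged -0.82. The gap took up 0.761 of the range of the 5 pairs, against a critical value of 0.71. Without this pair the log2 change of AT3G52960 was -0.41, not -0.15. NTRC stood at -1.12 in normal CO2 column 1, where the nearest other column stood at -0.34 and the other 9 averaged 0.08. Here the gap took up 0.533 of the range of the 10 columns, against a critical value of 0.466. Both flags were raised on centred levels, and Dixon's test was not run on uncentred ones. In deposited intensity column 1 was also the lowest, at 0.269, with column 3 next at 0.367 and the highest at 0.591. Centring widened the SD of NTRC over the normal CO2 pairs from 0.28 to 0.44. Column 2, the neighbour of column 1, stood at a centred level of -0.23 and was not set apart. Without column 1 the log2 change of NTRC was -0.15, not -0.06.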

How the results depend on the processing

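NTRC and AT3G52960 missed the threshold in every setting run, with adjusted p in limma of at least 0.575 and 0.341. AT3G52960 stayed below 0 throughout. Leaving out 1 averaged pair moved NTRC between -0.21 and 0.038, and its sign turned when normal CO2 columns 5 and 6, normal CO2 columns 9 and 10 or low CO2 columns 9 and 10 were left out. It moved AT3G52960 between -0.41 and -0.0084. NTRC minus AT3G52960 was 0.39 with low CO2 columns 1 and 2 left out, and turned to -0.13 when normal CO2 columns 1 and 2 were, and to -0.11 when low CO2 columns 3 and 4 were. The correlation of the genes' deviations, -0.17, turned to 0.12 without centring and 0.28 without the 2 farthest pairs. The cause of these moves was not tested.

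Of the other 6 redox genes, SBPASE alone passed in any setting, with 20 separate columns (log2 change -0.43, adjusted p in limma 0.0291), which counts neighbouring columns as independent samples. Numbers were not shown to pair the samples: same-numbered averaged pairs correlated at -0.02 to 0.40 across groups, above 0.1 in 3 of 5 (0.40, 0.35 and 0.29), and these 3 correlated best with their own number, so part of the samples may share a deviation by number. With the replicate number as a block, NTRC and AT3G52960 kept log2 changes of -0.06 ± 0.21 and -0.15 ± 0.21 (SE), NTRC minus AT3G52960 was 0.10 (exact sign-flip p = 0.688), no call among the 8 genes changed, and 89 probes passed.

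The count of 69 called probes became 589 with 20 separate columns, 186 with neighbouring columns as a random block, 34 without a variance trend, 30 with zeros at the lowest positive value and 20 at a threshold of 0.01. Leaving out 1 averaged pair gave 25 to 123 calls. The 123 came with normal CO2 columns 1 and 2 left out and the 25 with normal CO2 columns 5 and 6, or low CO2 columns 3 and 4. It was 37, 26 and 26 when normal CO2 columns 3 and 4, then 7 and 8, then 9 and 10 were left out, and 36 when low CO2 columns 9 and 10 were. The splits of higher and lower calls were 12 and 57 as reported, 296 and 293 with 20 separate columns, and 76 and 110 with the random block.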
